A study of Mus musculus with 12 samples.

Results

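The genes described here are 52 genes of mitosis: kinases and phosphatases of mitotic entry, the spindle assembly checkpoint, the kinetochore, the spindle, chromosome condensation, sister separation and cytokinesis, with the transcription factors Foxm1 and Mybl2. They were chosen by function as a list of gene symbols, with earlier results of these data known. Each was read from the probe set with exactly that symbol in the array annotation, or from the one with the highest mean where there were several. By this rule 51 of the 52 genes were measured, of 22180 genes in all. Ncapg, a condensin subunit, had no probe set with its symbol alone and is only named. The tissue was the tumour mass that grew after GL261 cells, a mouse glioma cell line, were placed in the brains of male mice of the immunocompetent C57BL/6 strain aged 8 weeks, and the brains were taken on day 16. There were 3 arrays in each of 4 groups. TMZ mice received temozolomide at 30 mg/kg into the peritoneum, Anti-PD-1 mice an antibody against PD-1 at 10 mg/kg into a vein with 2 injections per week, and Combination mice received both. Control tumours carried the same implanted line, and the labels state neither what these mice were given nor on which days the agents were dosed. Temozolomide is an alkylating drug, and PD-1 is an inhibitory receptor of T cells. The series asked how tumour expression differed after either agent alone and after both.

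Most of these genes are transcribed in a wave that begins late in S phase and ends as the cell divides, so that their RNA is abundant in cycling cells and scarce in resting neurons and glia. In resting cells the DREAM complex, built on the MuvB core, keeps their promoters silent. In cycling cells B-MYB (Mybl2) and then FOXM1 join the MuvB core and the genes are switched on. MuvB contacts a short promoter element called the cell cycle genes homology region, and the factor NF-Y binds the CCAAT boxes that many mitotic promoters carry in series. At the protein level the kinetochore ties each chromosome to spindle microtubules, the checkpoint holds back separation until all are tied, and the anaphase-promoting complex with Cdc20 then releases the sisters.

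The promoters of the members that led the comparisons are printed first because these elements are the feature through which the family is known to be controlled. The 6 shown belong to members past the test threshold in a comparison with Control and with the smallest p in the test of any difference among groups. Each is the 200 bases before the RefSeq gene start (build GRCm38.p6), written 5′ to 3′ on the gene's own strand. Capitals mark matches, on either strand, to the homology region (TTTGAA or TTTAAA) or to CCAAT; on the opposite strand TTTGAA reads TTCAAA and CCAAT reads ATTGG. No 2 marked matches overlap in these windows.
Hmmr, chr11:40733438-40733637, minus strand: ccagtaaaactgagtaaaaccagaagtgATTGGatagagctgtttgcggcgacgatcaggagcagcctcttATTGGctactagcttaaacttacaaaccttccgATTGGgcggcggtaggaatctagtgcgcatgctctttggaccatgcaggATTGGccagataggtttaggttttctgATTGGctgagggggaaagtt
Ect2, chr3:27153879-27154078, minus strand: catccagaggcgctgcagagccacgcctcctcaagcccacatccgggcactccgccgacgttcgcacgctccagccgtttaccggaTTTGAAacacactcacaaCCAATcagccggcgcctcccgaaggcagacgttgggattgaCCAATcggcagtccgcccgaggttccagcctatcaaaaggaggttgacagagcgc
Aurka, chr2:172370571-172370770, minus strand: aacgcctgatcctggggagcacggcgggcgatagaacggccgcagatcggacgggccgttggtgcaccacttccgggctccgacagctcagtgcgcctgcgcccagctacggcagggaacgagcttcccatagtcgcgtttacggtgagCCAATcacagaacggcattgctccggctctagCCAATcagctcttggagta
Top2a, chr11:99024190-99024389, minus strand: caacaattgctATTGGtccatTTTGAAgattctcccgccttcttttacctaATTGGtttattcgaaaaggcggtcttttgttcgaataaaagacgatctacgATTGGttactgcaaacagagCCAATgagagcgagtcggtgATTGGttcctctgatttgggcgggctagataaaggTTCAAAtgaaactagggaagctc
Spc25, chr2:69206214-69206413, minus strand: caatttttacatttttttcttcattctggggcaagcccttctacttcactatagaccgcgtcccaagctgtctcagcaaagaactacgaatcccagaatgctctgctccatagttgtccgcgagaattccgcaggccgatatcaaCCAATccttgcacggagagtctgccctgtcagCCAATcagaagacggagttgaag
Cenpe, chr3:135212363-135212562, plus strand: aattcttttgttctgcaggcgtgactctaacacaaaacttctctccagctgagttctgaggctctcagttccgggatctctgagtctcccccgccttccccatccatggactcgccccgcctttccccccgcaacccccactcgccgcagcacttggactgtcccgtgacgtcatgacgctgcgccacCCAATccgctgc

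The windows differ in what they hold. Top2a had 2 matches to the homology region and 5 CCAAT boxes, Ect2 had 1 and 2, and Hmmr had 5 CCAAT boxes without a match to the homology region. Aurka and Spc25 each had 2 CCAAT boxes and Cenpe had 1. A promoter entry was found for 43 of the 51 measured members, and the 250 bases before the start were searched for TTTGAA or TTTAAA, for CCAAT and for the E2F site written out as TTTCCCGC, TTTCGCGC, TTTGCCGC and TTTGGCGC, all on both strands. A gene with several entries was counted once if any entry held the motif. CCAAT was present in 29 of the 43 members (67.4%) and in 38.7% of the 16990 array genes with an entry. A window with 2 or more CCAAT boxes was found for 44.2% of members and 12.6% of all these genes. The homology region was found for 44.2% of members and 25.4% of all, and together with CCAAT for 39.5% and 9.38%. Its 2 forms differed: TTTGAA was found for 32.6% of members and 16.1% of all, and TTTAAA for 11.6% and 12.6%. The E2F site was found for 4 members (9.3%) and 2.7% of all. These matches describe the letters only, and no binding was measured.

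The deposited values are log2 signals from RMA, a procedure that corrects background, equalises the arrays' distributions and reduces the probes of a set to 1 value. Array medians lay between 5.06 and 5.12, and pairwise correlations between arrays lay between 0.984 and 0.991. An array has no read depth, and 3 arrays per group limit the precision. The values hold no call of presence, and 42 of the 51 members had a mean signal under that of the median gene, where the signal of an array is compressed. All 14 neuron, 9 oligodendrocyte and 10 astrocyte markers measured lay above the median gene, as did 8 of 10 glioma and progenitor markers, whereas 0 of 12 markers of T and cytotoxic lymphocytes did. The labels do not say how much brain each sample held, nor that each array came from a separate mouse, so the p-values measure the spread between these samples, which may be technical.

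The Control arrays were not alike in these genes. Each gene was centred on its average over the 12 arrays, and the mean of the 51 centred log2 values, called the member score here, was -0.07, -0.20 and -0.17 in TMZ, -0.17, -0.15 and -0.16 in Anti-PD-1 and -0.10, -0.13 and -0.15 in Combination, against 0.51, 0.65 and 0.15 in Control. Control replicate 3 therefore lay between the other Control arrays and the 9 treated arrays. It was the lowest Control array in 44 of 51 members (34.2% of all genes), and within the range of the treated arrays in 23 (80.7% of all genes). Control replicates 1 and 2 both lay above all 9 treated arrays in 43 members (7.61% of all genes), and all 3 Control arrays did so in 27 (1.87% of all genes). Control replicate 3 itself lay above all treated arrays in 28 members (9.03% of all genes). Members varied most in Control, with a median SD of 0.25, against 0.12 in TMZ, 0.12 in Anti-PD-1 and 0.11 in Combination (n = 3 each). The calls of each role group are given with all arrays and without Control replicate 3. In that fit 1.31% of all genes passed the adjusted p threshold given below as lower in TMZ, 2.2% in Anti-PD-1 and 1.02% in Combination. The array was singled out after its place in these same genes was seen, and leaving it out raises the Control mean in the 44 members above. Calls made without it are therefore no separate support. Without Control replicate 1 or 2 instead, 0 members of any role group passed against Control (at most 0.00451% of all genes).

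Several lists of cell type markers moved with these arrays too. Neuron scores, computed the same way, lay between -0.02 and 0.05 in TMZ, 0.02 and 0.05 in Anti-PD-1 and -0.02 and 0.01 in Combination, against -0.06, -0.07 and 0.02 in Control. Glioma and progenitor scores lay between -0.12 and 0.06 in TMZ, -0.22 and -0.03 in Anti-PD-1 and -0.07 and 0.01 in Combination, against 0.20, 0.33 and 0.01 in Control. Of the 10 glioma and progenitor markers, 3 had a higher mean than in Control in TMZ, 2 in Anti-PD-1 and 3 in Combination. The median marker was at -0.19 in TMZ, -0.23 in Anti-PD-1 and -0.13 in Combination. Vim was the lowest, at -1.01, -1.16 and -0.85. In the mean scores Control replicates 1 and 2 were the lowest arrays in neuron markers and the highest in glioma markers. Microglia scores in the same 2 arrays were 0.18 and 0.14, monocyte and macrophage scores 0.18 and 0.40, and T and cytotoxic lymphocyte scores 0.17 and 0.27, and Control replicate 3 was at 0.03, -0.04 and -0.04. The highest treated arrays reached 0.07 in microglia, 0.22 in monocyte and macrophage and 0.09 in lymphocyte scores. Endothelial scores were -0.09, 0.46 and 0.04 in TMZ, -0.07, 0.02 and 0.06 in Anti-PD-1 and 0.02, 0.07 and -0.01 in Combination, against -0.23, -0.08 and -0.20 in Control, and TMZ replicate 2 stood apart. Of the 9 endothelial markers, 9 had a higher mean than in Control in TMZ, 8 in Anti-PD-1 and 9 in Combination, and 0 passed the threshold. Astrocyte scores lay between -0.03 and 0.04 in TMZ, -0.07 and -0.01 in Anti-PD-1 and -0.04 and 0.04 in Combination, against 0.11, 0.00 and -0.01 in Control. Oligodendrocyte scores were 0.15, 0.02 and -0.03 in Control. In both lists Control replicates 2 and 3 lay within the range of the treated arrays. Among all the marker genes, 2 passed the adjusted p threshold used below in a comparison with Control, both in Anti-PD-1: Plac8 of the monocyte list fell (-0.69 ± 0.10, SE, adjusted p = 0.0326), and so did Myc of the glioma list (-0.67 ± 0.11, adjusted p = 0.0432). Apart from a fit with the neuron score as a covariate, given below, the part of these cell types in the results was not tested, and in bulk tissue fewer dividing cells and less mitotic RNA per cell cannot be told apart.

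Each treatment was first set against Control, to see how mitotic genes stood in tumours after TMZ alone, the antibody alone or both. In all 3 comparisons every measured member had a lower mean than in Control, and the median member was at about the same distance. The median log2 difference was -0.54 for TMZ, -0.53 for Anti-PD-1 and -0.52 for Combination, against 0.01, 0.01 and 0.00 over all genes in the same comparisons. A negative difference was found for 47.9% of all genes in TMZ, 47.6% in Anti-PD-1 and 49.8% in Combination. Control had the highest group mean in all 51 members (29.8% of all genes), and the lowest was TMZ in 15 (20.3%), Anti-PD-1 in 23 (23.5%) and Combination in 13 (23.3%). Control was the lowest in 0 members and in 32.9% of all genes. The shares of the treated groups among all genes are therefore low as a reference for the members. The 3 comparisons share the same Control arrays, so their likeness is no separate evidence. The members' lower and upper quartiles were -0.77 and -0.33 in TMZ, -0.78 and -0.33 in Anti-PD-1 and -0.75 and -0.33 in Combination.

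**Figure D1:**
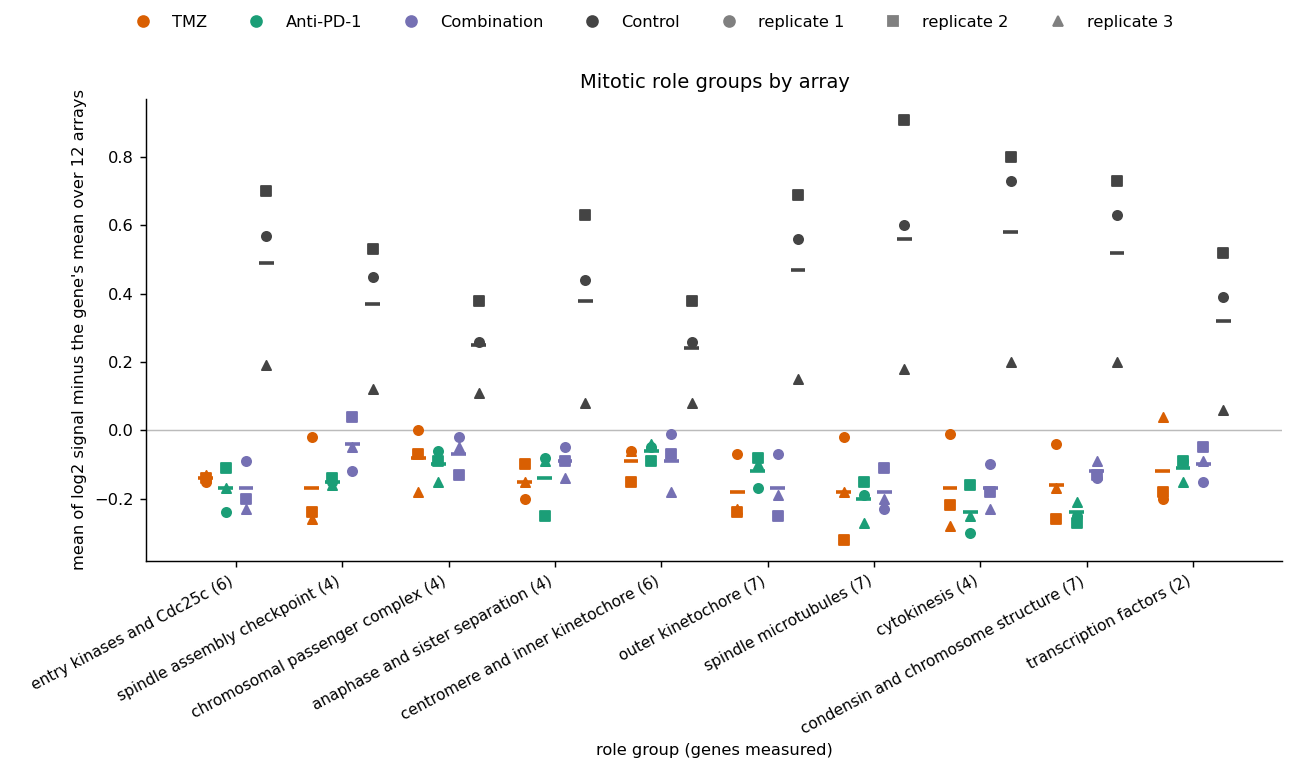
Mean over the genes of each role group of the log2 signal minus the gene's mean over 12 arrays (vertical axis), by role group (horizontal axis); each point is an array, its shape the replicate number, and bars are group means. In every role group the TMZ, Anti-PD-1 and Combination arrays lie together near or below 0, Control replicates 1 and 2 lie highest, and Control replicate 3 lies between.

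Few of these differences passed a test across all genes. With limma and Benjamini-Hochberg adjustment over 22180 genes at 0.05, 3 members fell in TMZ (Spc25, Hmmr and Ect2), against 0.0812% of all genes called lower. In Anti-PD-1, 9 members fell (Hmmr, Ect2, Top2a, Cenpe, Ckap2, Aurka, Cdc20, Mki67 and Prc1), against 0.212% of all genes. In Combination 0 members passed, as did 0.0% of all genes, and the smallest adjusted p of a member was 0.0725. At an unadjusted p under 0.05, 41 members were lower in TMZ (5.78% of all genes), 43 in Anti-PD-1 (6.79%) and 42 in Combination (6.18%), and 0 were higher in any of the 3 (5.47%, 6.7% and 5.43% of all genes). The treated and Control arrays did not overlap in 39 members in TMZ (6.81% of all genes), 39 in Anti-PD-1 (8.33%) and 36 in Combination (7.82%). In the test of any difference among the 4 groups 0 members passed (0.00451% of all genes), and 44 had an unadjusted p under 0.05 (10.1% of all genes).

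Among the kinases of mitotic entry, Aurka fell in Anti-PD-1. This gene encodes aurora A, the kinase of the centrosome and spindle pole. Its log2 signal was 5.15, 5.08 and 5.34 in TMZ, 5.18, 5.22 and 5.18 in Anti-PD-1 and 5.12, 5.04 and 5.20 in Combination, against 5.88, 5.95 and 5.55 in Control. All treated arrays lay under all Control arrays, and TMZ replicate 3 and Control replicate 3 came nearest to each other. The difference from Control was -0.60 ± 0.10 in Anti-PD-1 (SE; adjusted p = 0.0472, 1.51-fold lower), -0.60 ± 0.10 in TMZ (adjusted p = 0.0668) and -0.67 ± 0.10 in Combination (adjusted p = 0.0725). Cdk1, the kinase whose partner cyclins drive entry into mitosis, had 4.78, 4.62 and 4.50 in TMZ, 4.31, 4.96 and 4.60 in Anti-PD-1 and 4.80, 4.46 and 4.59 in Combination, against 5.94, 5.76 and 5.20 in Control. The highest treated array was Anti-PD-1 replicate 2, and none reached Control. The Cdk1 differences of -1.0 ± 0.19 in TMZ, -1.01 ± 0.19 in Anti-PD-1 and -1.02 ± 0.19 in Combination missed the threshold (adjusted p = 0.107, 0.0556 and 0.129).

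Plk1, the polo-like kinase that acts from entry to cytokinesis, had 5.30, 5.31 and 5.45 in TMZ, 5.26, 5.39 and 5.49 in Anti-PD-1 and 5.28, 5.24 and 5.42 in Combination, against 6.31, 6.38 and 5.62 in Control. The 9 treated arrays lay within 5.24 to 5.49, and Control replicate 3 lay far closer to them than to the other Control arrays. Its differences were -0.75 in TMZ, -0.72 in Anti-PD-1 and -0.79 in Combination (adjusted p from 0.0818 to 0.14). The phosphatase gene Cdc25c, which activates Cdk1, was at -0.55 in TMZ, -0.72 in Anti-PD-1 and -0.66 in Combination, with no overlap with Control in any of the 3. Melk, a kinase of dividing and progenitor cells, was at -0.39 in TMZ, -0.49 in Anti-PD-1 and -0.53 in Combination, and its TMZ arrays overlapped Control. Nek2, which helps the centrosomes part, was at -0.48 in TMZ, -0.42 in Anti-PD-1 and -0.29 in Combination, and its Combination arrays overlapped Control. None of these passed the threshold with all arrays. Without Control replicate 3, 4 of the 6 genes passed in TMZ, 6 in Anti-PD-1 and 4 in Combination. Cdk1, Plk1 and Aurka passed in all 3 (adjusted p from 0.000969 to 0.00928). The shares of all genes called lower in that fit were 1.31%, 2.2% and 1.02%. Without Control replicate 1 or 2 instead, 0 members passed. That array was left out after its place was seen, so such calls are no separate support, here and in each role group below.

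The 2 transcription factor genes differed in size. Foxm1, which drives late mitotic transcription, had 3.95, 4.24 and 4.53 in TMZ, 4.44, 4.34 and 4.18 in Anti-PD-1 and 4.22, 4.33 and 4.32 in Combination, against 5.08, 5.12 and 4.57 in Control. TMZ replicate 3 lay just under Control replicate 3, and no treated array reached Control. Its differences were -0.68 ± 0.16 in TMZ, -0.60 ± 0.16 in Anti-PD-1 and -0.63 ± 0.16 in Combination (adjusted p = 0.143, 0.126 and 0.186). Mybl2, the B-MYB gene, had 5.29, 5.05 and 5.20 in TMZ, 5.04, 5.14 and 5.16 in Anti-PD-1 and 5.14, 5.23 and 5.16 in Combination, against 5.35, 5.59 and 5.20 in Control. Here TMZ and Combination arrays overlapped Control replicate 3, and the differences were -0.20 in TMZ, -0.27 in Anti-PD-1 and -0.20 in Combination (adjusted p from 0.249 to 0.473). Foxm1 passed without Control replicate 3 in TMZ, Anti-PD-1 and Combination (adjusted p = 0.0159, 0.0164 and 0.0221) and Mybl2 in none. Neither gene passed without Control replicate 1 or 2 instead.

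In the spindle assembly checkpoint 0 of 4 members passed in any comparison with all arrays. Without Control replicate 3, 3 passed in TMZ and in Anti-PD-1 (Bub1, Ttk and Mad2l1) and 2 in Combination (Bub1 and Ttk). None did without Control replicate 1 or 2 instead. Bub1, a kinase that marks unattached kinetochores, had 3.67, 3.24 and 3.07 in TMZ, 3.17, 3.51 and 3.35 in Anti-PD-1 and 3.25, 3.27 and 3.19 in Combination, against 4.22, 4.39 and 3.77 in Control. No treated array reached Control, and TMZ replicate 1 came nearest. Its differences were -0.80 ± 0.17 in TMZ, -0.78 ± 0.17 in Anti-PD-1 and -0.89 ± 0.17 in Combination (adjusted p = 0.126, 0.076 and 0.129). Mad2l1 encodes MAD2, which binds and restrains Cdc20. It had 5.81, 5.57 and 5.72 in TMZ, 5.68, 5.67 and 5.70 in Anti-PD-1 and 5.85, 6.07 and 5.83 in Combination, against 6.14, 6.31 and 5.94 in Control. Combination replicate 2 lay above Control replicate 3, so the Combination group overlapped Control while TMZ and Anti-PD-1 did not, and the differences were -0.43 in TMZ, -0.45 in Anti-PD-1 and -0.21 in Combination. Ttk, the checkpoint kinase MPS1, was at -0.59 in TMZ, -0.65 in Anti-PD-1 and -0.47 in Combination. Bub1b, the BUBR1 gene, departed from the common order of arrays. It had 4.61, 4.63 and 4.46 in TMZ, 4.80, 4.71 and 4.58 in Anti-PD-1 and 4.60, 4.92 and 5.0 in Combination, against 4.88, 4.89 and 4.93 in Control. Its Control arrays were nearly equal, replicate 3 included, and Combination replicate 3 was the highest array of all. Its differences were -0.33 in TMZ, -0.20 in Anti-PD-1 and -0.06 in Combination (adjusted p from 0.25 to 0.851), and it did not pass without Control replicate 3 either.

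The chromosomal passenger complex, which corrects wrong attachments and later guides cytokinesis, had 0 of 4 members past the threshold with all arrays. Without Control replicate 3, Birc5 passed in TMZ (adjusted p = 0.0309), Birc5 and Cdca8 in Anti-PD-1 (adjusted p = 0.0171 and 0.0231) and Cdca8 in Combination (adjusted p = 0.0419). With Control replicate 1 or 2 left out instead, none of the 4 passed. Birc5, the survivin gene, had 3.88, 3.65 and 3.59 in TMZ, 3.81, 3.59 and 3.61 in Anti-PD-1 and 3.99, 3.72 and 3.65 in Combination, against 4.30, 4.38 and 4.11 in Control. Replicate 1 of Combination was the highest treated array and lay just under Control replicate 3. The differences were -0.55 ± 0.11 in TMZ, -0.59 ± 0.11 in Anti-PD-1 and -0.48 ± 0.11 in Combination (adjusted p = 0.12, 0.0553 and 0.17). Aurkb, the kinase of the complex, had 5.20, 5.16 and 4.98 in TMZ, 5.05, 5.22 and 5.30 in Anti-PD-1 and 5.24, 5.03 and 5.28 in Combination, against 5.48, 5.65 and 5.40 in Control. Its groups did not overlap with Control, with differences of -0.39 in TMZ, -0.32 in Anti-PD-1 and -0.33 in Combination (adjusted p from 0.178 to 0.244). The borealin gene Cdca8 was at -0.19 in TMZ, -0.26 in Anti-PD-1 and -0.26 in Combination, and the scaffold gene Incenp at -0.18 in TMZ, -0.21 in Anti-PD-1 and -0.18 in Combination.

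Of the 4 genes of anaphase and sister separation, Cdc20 fell in Anti-PD-1. Its product activates the anaphase-promoting complex. The gene had 4.65, 4.99 and 4.90 in TMZ, 4.82, 4.49 and 4.80 in Anti-PD-1 and 4.67, 4.94 and 4.92 in Combination, against 5.77, 5.82 and 5.24 in Control. Anti-PD-1 replicate 2 was the lowest array, and all 9 treated arrays lay under Control. The differences were -0.91 ± 0.16 in Anti-PD-1 (adjusted p = 0.0472, 1.88-fold lower), -0.77 ± 0.16 in TMZ (adjusted p = 0.12) and -0.77 ± 0.16 in Combination (adjusted p = 0.14). Ube2c, the ubiquitin-conjugating enzyme of the same complex, had 4.24, 4.03 and 4.15 in TMZ, 4.13, 4.0 and 4.20 in Anti-PD-1 and 4.39, 4.49 and 4.10 in Combination, against 5.23, 5.54 and 4.52 in Control. Combination replicate 2 at 4.49 and Control replicate 3 at 4.52 nearly met, and Control replicate 2 was about 1 log2 unit above Control replicate 3. Its differences were -0.96 ± 0.20 in TMZ, -0.99 ± 0.20 in Anti-PD-1 and -0.77 ± 0.20 in Combination (adjusted p = 0.126, 0.063 and 0.195). Without Control replicate 3, Cdc20 and Ube2c passed in all 3 comparisons (adjusted p from 0.00147 to 0.00928), and Espl1 and Pttg1 in none. None of the 4 passed with Control replicate 1 or 2 left out instead. The genes of separase, which cuts cohesin, and of securin, which restrains separase, were at the small end. Espl1, the separase gene, was at -0.30 in TMZ, -0.16 in Anti-PD-1 and -0.30 in Combination. Pttg1, the securin gene, had 6.62, 6.72 and 6.54 in TMZ, 6.74, 6.53 and 6.78 in Anti-PD-1 and 6.86, 6.44 and 6.67 in Combination, against 6.70, 6.88 and 6.58 in Control. The 4 groups overlapped throughout, and its differences of -0.09 ± 0.11 in TMZ, -0.03 ± 0.11 in Anti-PD-1 and -0.06 ± 0.11 in Combination were the smallest of all members in TMZ and Anti-PD-1 and shared the smallest size with Bub1b in Combination.

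At the centromere 0 of 6 members passed, with all arrays or without Control replicate 3. Cenpa encodes the histone H3 variant that marks the centromere, and the other 5 encode subunits of the network built upon it. Cenpm had 5.71, 5.88 and 6.02 in TMZ, 6.01, 6.03 and 5.96 in Anti-PD-1 and 6.09, 6.25 and 5.73 in Combination, against 6.45, 6.41 and 6.21 in Control, and Combination replicate 2 overlapped Control. Cenpn had 4.84, 4.90 and 4.81 in TMZ, 4.86, 4.94 and 4.85 in Anti-PD-1 and 4.81, 4.86 and 4.80 in Combination, against 4.92, 5.40 and 5.19 in Control. The treated arrays of Cenpn lay within 4.80 to 4.94, while Control spread from 4.92 to 5.40. Their differences were -0.49 in TMZ, -0.36 in Anti-PD-1 and -0.33 in Combination for Cenpm and -0.32 in TMZ, -0.29 in Anti-PD-1 and -0.35 in Combination for Cenpn (adjusted p from 0.178 to 0.344). Over the 6 genes the median difference was -0.30 in TMZ, -0.29 in Anti-PD-1 and -0.34 in Combination. Cenpa, Cenph, Cenpi and Cenpk were between -0.51, for Cenpa in Anti-PD-1, and -0.11, for Cenpk in Combination.

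The outer kinetochore binds the microtubules, and its 7 members had median differences of -0.67 in TMZ, -0.61 in Anti-PD-1 and -0.57 in Combination. Spc25, a subunit of the NDC80 complex, fell in TMZ. It had 3.0, 3.01 and 3.02 in TMZ, 3.26, 3.28 and 3.05 in Anti-PD-1 and 3.19, 3.09 and 3.19 in Combination, against 3.64, 3.45 and 3.53 in Control. The 3 TMZ arrays were nearly equal and lay under every other array, and Control replicate 3 lay between Control replicates 2 and 1. All 12 values were far under the median gene (5.72), where the signal is compressed, so the small spread in TMZ need not mean precision. The differences were -0.53 ± 0.07 in TMZ (adjusted p = 0.0402, 1.44-fold lower), -0.34 ± 0.07 in Anti-PD-1 (adjusted p = 0.079) and -0.38 ± 0.07 in Combination (adjusted p = 0.139). Cenpe, a kinesin that carries chromosomes to the spindle equator, fell in Anti-PD-1. It had 4.79, 4.50 and 4.56 in TMZ, 4.68, 4.45 and 4.43 in Anti-PD-1 and 4.52, 4.60 and 4.54 in Combination, against 5.33, 5.51 and 5.01 in Control, with all treated arrays under all Control arrays. The differences were -0.76 ± 0.12 in Anti-PD-1 (adjusted p = 0.0421), -0.67 ± 0.12 in TMZ (adjusted p = 0.0926) and -0.73 ± 0.12 in Combination (adjusted p = 0.11).

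The other NDC80 subunits spread widely. Ndc80 itself had 4.08, 4.04 and 3.89 in TMZ, 3.62, 4.75 and 4.29 in Anti-PD-1 and 4.26, 3.57 and 4.12 in Combination, against 5.19, 5.65 and 4.36 in Control. Anti-PD-1 replicates 1 and 2 differed by more than 1 log2 unit, and the SD of Ndc80 was the largest of any member in Anti-PD-1, Combination and Control. Its differences of -1.07 ± 0.32 in TMZ, -0.85 ± 0.32 in Anti-PD-1 and -1.09 ± 0.32 in Combination were among the largest in size and missed the threshold (adjusted p = 0.251, 0.276 and 0.238). Nuf2 was at -0.86 in TMZ, -0.79 in Anti-PD-1 and -0.68 in Combination, and Spc24 at -0.20 in TMZ, -0.27 in Anti-PD-1 and -0.51 in Combination. Cenpf, a large protein of the kinetochore corona, was at -0.69 in TMZ, -0.61 in Anti-PD-1 and -0.52 in Combination. Knstrn, which tracks microtubule ends at the kinetochore, was at -0.51 in TMZ, -0.49 in Anti-PD-1 and -0.57 in Combination. These 4 had adjusted p from 0.0947 to 0.646. With Control replicate 3 left out, 6 of the 7 outer kinetochore genes passed in TMZ (all but Spc24) and 4 in each of Anti-PD-1 and Combination, with Cenpe, Cenpf and Knstrn in all 3. With Control replicate 1 or 2 left out instead, none of the 7 passed.

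Among the 7 genes of spindle microtubules, Hmmr fell in TMZ and Anti-PD-1 and Ckap2 fell in Anti-PD-1. Hmmr encodes a protein that binds hyaluronan and spindle microtubules. It had 3.27, 3.08 and 3.18 in TMZ, 3.10, 3.05 and 3.10 in Anti-PD-1 and 3.14, 3.27 and 3.20 in Combination, against 4.14, 4.06 and 3.63 in Control. The 9 treated arrays lay within 3.05 to 3.27, below all Control arrays, and Hmmr was far under the median gene (5.72) on every array. The differences were -0.76 ± 0.11 in TMZ (adjusted p = 0.041, 1.7-fold lower), -0.86 ± 0.11 in Anti-PD-1 (adjusted p = 0.0184, 1.82-fold lower) and -0.74 ± 0.11 in Combination (adjusted p = 0.0725). Ckap2, a microtubule-associated protein of the spindle, had 4.42, 3.92 and 4.0 in TMZ, 3.92, 4.16 and 4.01 in Anti-PD-1 and 4.08, 4.34 and 4.09 in Combination, against 5.34, 5.40 and 4.66 in Control. TMZ replicate 1 and Combination replicate 2 were the highest treated arrays and lay under Control replicate 3. The Ckap2 differences were -1.11 ± 0.18 in Anti-PD-1 (adjusted p = 0.0456, 2.15-fold lower), -1.02 ± 0.18 in TMZ (adjusted p = 0.0873) and -0.97 ± 0.18 in Combination (adjusted p = 0.129).

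The remaining spindle genes missed the threshold with all arrays. In the fit without Control replicate 3, 5 of the 7 spindle genes passed in TMZ, 6 in Anti-PD-1 and 6 in Combination, Aspm missing in TMZ and Ckap2l in all 3. None of the 7 passed in the fits without Control replicate 1 or 2. Tpx2, which activates aurora A on the spindle, was at -0.80 in TMZ, -0.77 in Anti-PD-1 and -0.71 in Combination. Nusap1, which bundles spindle microtubules, was at -0.96 in TMZ, -0.87 in Anti-PD-1 and -0.90 in Combination. Dlgap5, which steadies the fibres that pull on kinetochores, was at -0.72 in TMZ, -0.68 in Anti-PD-1 and -0.74 in Combination. The Tpx2, Nusap1 and Dlgap5 arrays did not overlap with Control in any comparison. Aspm, the spindle pole gene, was at -0.54 in TMZ, -0.56 in Anti-PD-1 and -0.79 in Combination, and Anti-PD-1 replicate 2 overlapped Control. Ckap2l, a relative of Ckap2, was at -0.35 in TMZ, -0.49 in Anti-PD-1 and -0.37 in Combination, with Control replicate 1 below TMZ replicate 1.

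The 4 cytokinesis genes had the largest median difference of the role groups in Anti-PD-1, -0.80, and stood at -0.72 in TMZ and -0.76 in Combination. Ect2, the exchange factor that activates RhoA at the division plane, fell in TMZ and Anti-PD-1. It had 4.86, 4.42 and 4.59 in TMZ, 4.58, 4.46 and 4.41 in Anti-PD-1 and 4.62, 4.60 and 4.54 in Combination, against 5.93, 6.33 and 5.34 in Control. Every treated array lay at or under 4.86, and Control replicate 3 was about 1 log2 unit under Control replicate 2. The differences were -1.25 ± 0.19 in TMZ (adjusted p = 0.0461, 2.37-fold lower), -1.39 ± 0.19 in Anti-PD-1 (adjusted p = 0.0309, 2.62-fold lower) and -1.28 ± 0.19 in Combination (adjusted p = 0.0725). Prc1, which bundles the microtubules of the central spindle, had 4.79, 4.53 and 4.53 in TMZ, 4.42, 4.60 and 4.54 in Anti-PD-1 and 4.53, 4.68 and 4.56 in Combination, against 5.70, 6.01 and 5.05 in Control. Its treated arrays lay under all Control arrays, and it fell in Anti-PD-1 (-1.07 ± 0.18, adjusted p = 0.0478, 2.1-fold lower). In TMZ and Combination Prc1 was at -0.97 ± 0.18 and -1.0 ± 0.18 (adjusted p = 0.107 and 0.126).

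Racgap1, the GTPase-activating subunit of the centralspindlin complex, was at -0.48 in TMZ, -0.53 in Anti-PD-1 and -0.52 in Combination (adjusted p from 0.0619 to 0.145). Leaving out Control replicate 3, Prc1, Ect2 and Racgap1 passed in all 3 comparisons and Anln in none. No cytokinesis gene passed when Control replicate 1 or 2 was left out instead. Anln encodes anillin, a scaffold of the contractile ring that is also found in myelin of the brain. It had 7.77, 7.60 and 7.32 in TMZ, 7.40, 7.71 and 7.67 in Anti-PD-1 and 7.82, 7.62 and 7.55 in Combination, against 8.11, 7.82 and 7.66 in Control. Groups overlapped in all 3 comparisons, with differences of -0.30 in TMZ, -0.27 in Anti-PD-1 and -0.20 in Combination, the smallest of the cytokinesis genes. Oligodendrocyte scores on the same arrays lay between -0.12 and 0.08 in TMZ, 0.01 and 0.07 in Anti-PD-1 and -0.11 and 0.04 in Combination, against -0.03 and 0.15 in Control, and their part was not tested.

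Chromosome structure held the largest differences. Top2a, the topoisomerase that untangles sister chromatids, had 5.03, 4.29 and 4.87 in TMZ, 4.37, 4.45 and 4.56 in Anti-PD-1 and 4.69, 5.29 and 5.11 in Combination, against 6.56, 6.78 and 5.63 in Control. The Anti-PD-1 arrays were close together and the Combination arrays lay above them, whereas Control replicate 3 lay far under the other Control arrays. Top2a fell in Anti-PD-1 (-1.86 ± 0.27, adjusted p = 0.0326, 3.63-fold lower). It was at -1.59 ± 0.27 in TMZ (3.01-fold, adjusted p = 0.071) and -1.29 ± 0.27 in Combination (2.45-fold, adjusted p = 0.148), and in each comparison it was the member furthest from 0. Mki67, the Ki-67 gene whose protein coats mitotic chromosomes, had 5.86, 5.19 and 5.41 in TMZ, 5.24, 5.43 and 5.47 in Anti-PD-1 and 5.44, 5.51 and 5.56 in Combination, against 6.84, 6.77 and 6.04 in Control. TMZ replicate 1 came nearest to Control replicate 3, and no treated array reached it. Mki67 fell in Anti-PD-1 (-1.17 ± 0.20, adjusted p = 0.0472, 2.25-fold lower) and was at -1.06 ± 0.20 in TMZ (adjusted p = 0.107) and -1.05 ± 0.20 in Combination (adjusted p = 0.13).

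Condensin genes were nearer to 0 and 0 of 5 passed with all arrays. Once Control replicate 3 was left out, Ncaph, Ncapd2 and Smc4 passed in all 3 comparisons, as did Top2a and Mki67, Smc2 passed in Anti-PD-1, and Ncapg2 passed in none. None of these genes passed without Control replicate 1 or 2 instead. Smc2 and Smc4 encode the core shared by both condensins, and were at -0.28 in TMZ, -0.43 in Anti-PD-1 and -0.27 in Combination for Smc2 and -0.56 in TMZ, -0.56 in Anti-PD-1 and -0.51 in Combination for Smc4. Ncaph, a subunit of condensin I, was at -0.66 in TMZ, -0.52 in Anti-PD-1 and -0.64 in Combination. Ncapd2, of the same complex, was at -0.26 in TMZ, -0.40 in Anti-PD-1 and -0.34 in Combination. Ncapg2 belongs to condensin II. It had 4.95, 5.33 and 5.36 in TMZ, 5.14, 5.10 and 5.21 in Anti-PD-1 and 5.33, 5.03 and 5.11 in Combination, against 5.56, 5.53 and 5.57 in Control. Control replicate 3 was the highest of all its arrays, as in no other member, and its differences were -0.34 in TMZ, -0.40 in Anti-PD-1 and -0.40 in Combination (adjusted p from 0.128 to 0.276).

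**Figure D2:**
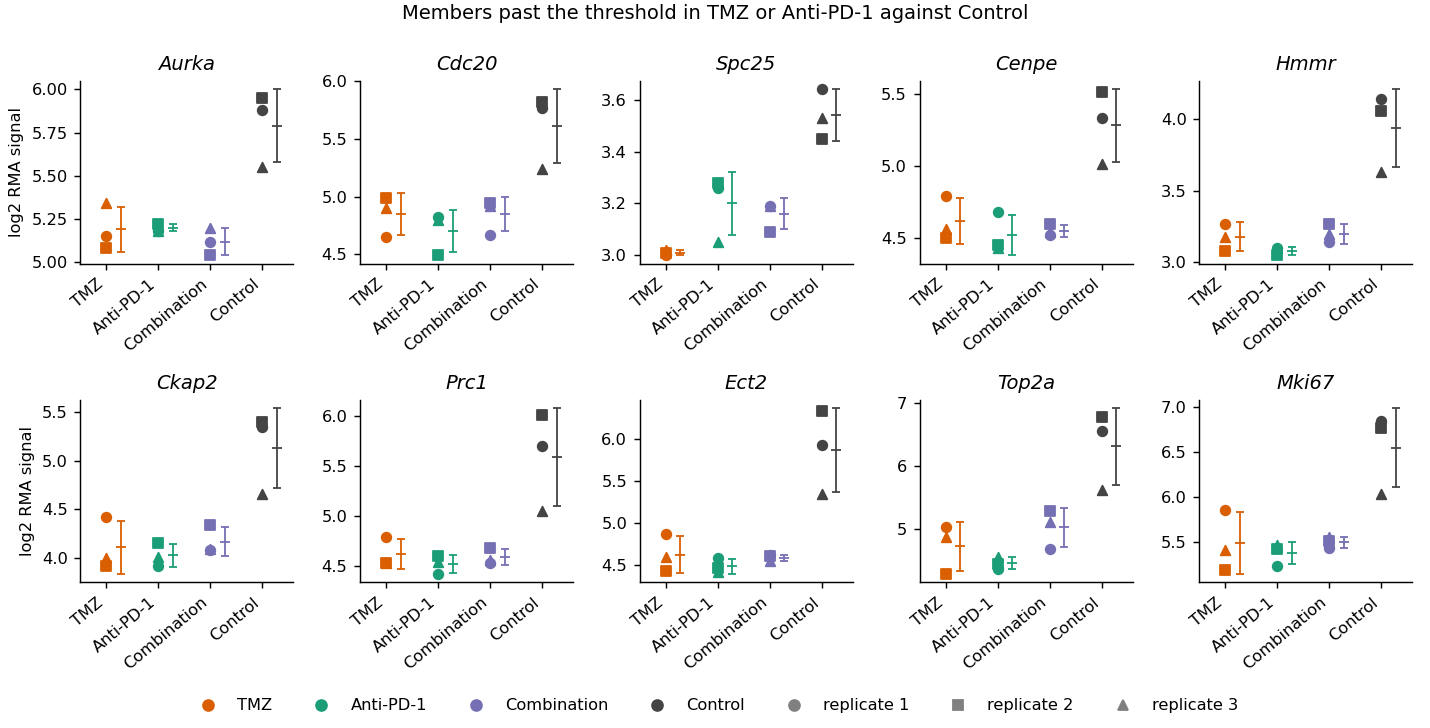
Log2 RMA signal (vertical axis) of the 10 members past the threshold in TMZ or Anti-PD-1 against Control; points are arrays, shapes are replicate numbers, and the bar beside each group is the mean ± SD (n = 3). All treated arrays lie under all Control arrays in each of the 10 genes, and in all but Spc25 Control replicate 3 is the Control array nearest to them.

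**Figure D3:**
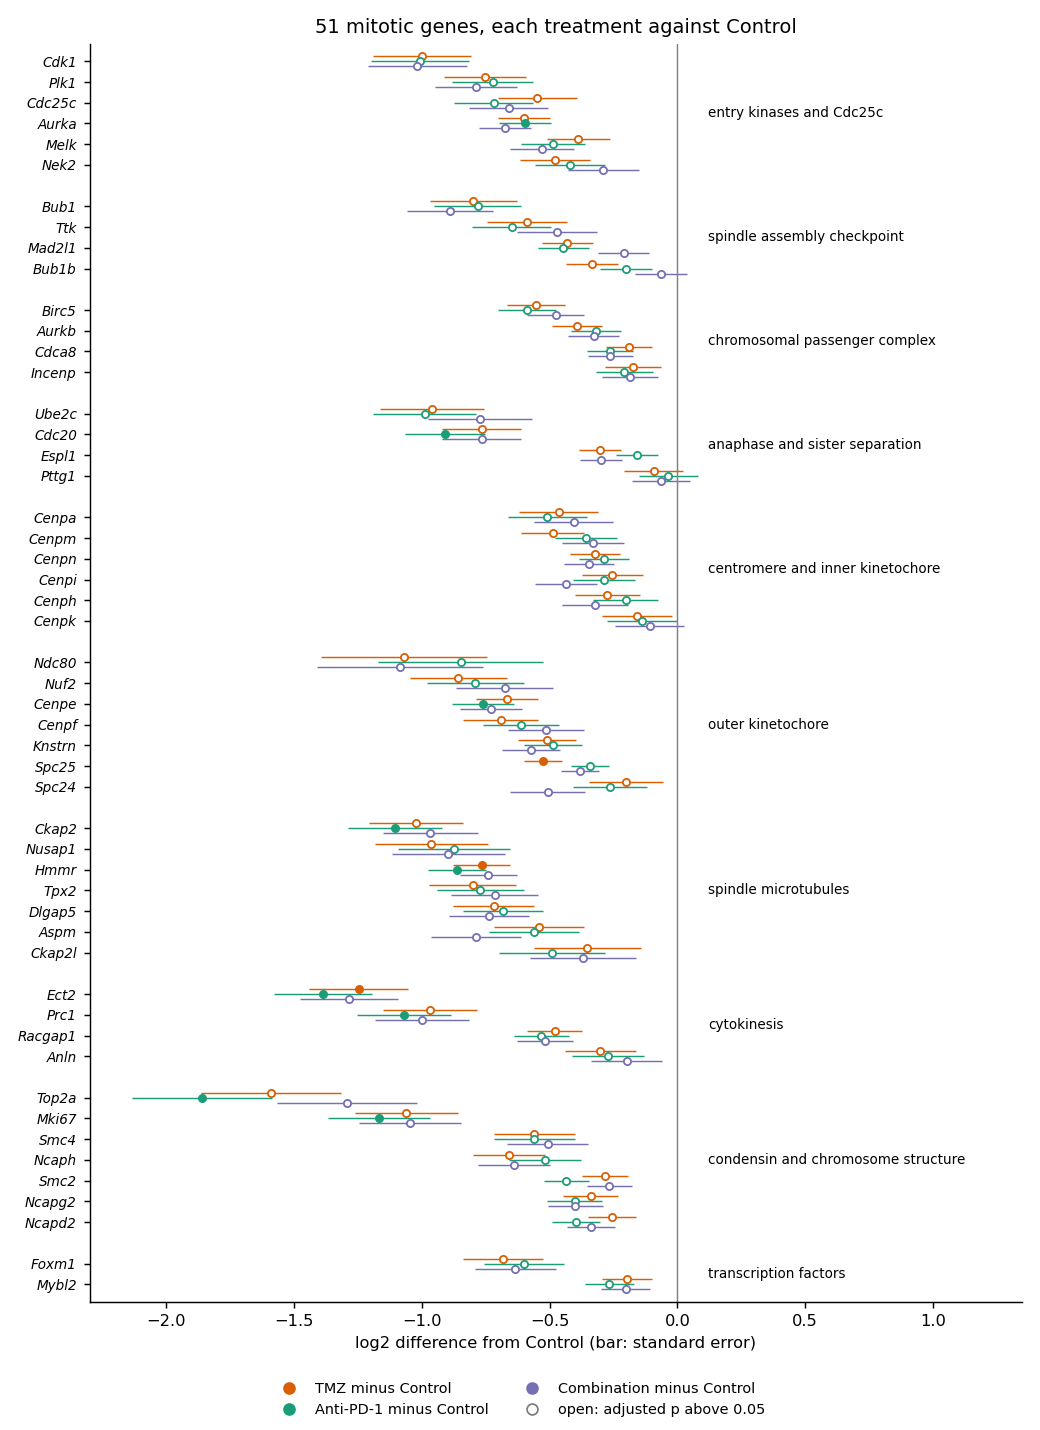
Log2 difference from Control (horizontal axis) of each of the 51 members in TMZ, Anti-PD-1 and Combination, by role group; bars are standard errors and filled points passed the threshold. Every point lies left of 0, from -1.86 for Top2a in Anti-PD-1 to -0.03 for Pttg1 in Anti-PD-1.

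Set side by side, the members at both ends were largely shared by the comparisons, which use the same Control arrays. The 3 members furthest from 0 were Top2a, Ect2 and Ndc80 in TMZ (-1.59, -1.25 and -1.07), Top2a, Ect2 and Mki67 in Anti-PD-1 (-1.86, -1.39 and -1.17) and Top2a, Ect2 and Ndc80 in Combination (-1.29, -1.28 and -1.09). The 3 nearest to 0 were Pttg1, Cenpk and Incenp in TMZ, Pttg1, Cenpk and Espl1 in Anti-PD-1 and Pttg1, Bub1b and Cenpk in Combination. Over all genes the differences had a 5th percentile of -0.26 in TMZ, -0.27 in Anti-PD-1 and -0.27 in Combination, so most members lay beyond it. These ranks compare differences, not levels, since probe sets differ in brightness.

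The treatments were then compared with one another, to see what each agent added to the other and how the single agents differed. No separation comparable to that from Control was found. The member score averaged -0.13 ± 0.03 in Combination, -0.15 ± 0.07 in TMZ and -0.16 ± 0.01 in Anti-PD-1 (SD, n = 3 each). The median member was at 0.01 for Combination against TMZ, 0.03 for Combination against Anti-PD-1 and 0.02 for TMZ against Anti-PD-1. In limma 0 of 51 members passed in any of these, as did 0.0% of all genes, with every member's adjusted p at 1. At an unadjusted p under 0.05, 2 members were higher in Combination than in TMZ (1.76% of all genes), 1 was higher in Combination than in Anti-PD-1 (2.01%) and 1 was lower in TMZ than in Anti-PD-1 (2.39%), and 0 were found in the opposite directions (2.43%, 2.9% and 2.11%). Chosen after their values were seen, these were Bub1b (0.27 ± 0.10) and Mad2l1 (0.22 ± 0.10) in Combination against TMZ, Mad2l1 (0.24 ± 0.10) in Combination against Anti-PD-1 and Spc25 (-0.18 ± 0.07) in TMZ against Anti-PD-1.

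A missed threshold does not show that the treatments act alike, and the intervals say how far apart they could be. The 95% interval of a member's difference between treatments had a median half-width of 0.30 to 0.31 log2. For Mki67 it was -0.42 to 0.45 in Combination against TMZ and -0.32 to 0.56 in Combination against Anti-PD-1. For Hmmr it was -0.22 to 0.27 and -0.12 to 0.37, and for Cdk1 -0.44 to 0.40 and -0.43 to 0.41. Top2a left the most room: its 3 Combination arrays (4.69, 5.29 and 5.11) all lay above its 3 Anti-PD-1 arrays (4.37, 4.45 and 4.56), with a difference of 0.57 ± 0.27 and an interval of -0.03 to 1.16. Groups that did not overlap were few. Between Combination and Anti-PD-1 they were found for Top2a, Mad2l1, Ttk and Hmmr with Combination higher (4.87% of all genes) and Knstrn with Combination lower (5.67%). Between Combination and TMZ they were Mad2l1 and Spc25 higher (3.81%) and Aspm and Ncapd2 lower (4.7%), and between TMZ and Anti-PD-1 they were Cdca8 and Ncapd2 higher (4.38%) and Espl1 and Spc25 lower (4.39%).

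The interaction asks whether the antibody's difference in the presence of TMZ equals its difference from Control, and was computed as Combination minus TMZ less Anti-PD-1 minus Control. Had the 2 agents' log2 differences added up, it would be near 0. The median member was at 0.57, against -0.02 over all genes, and 50 of 51 members were above 0 (46.2% of all genes). In limma 0 members passed (0.00451% of all genes), and 36 had an unadjusted p under 0.05 with a value above 0 (4.65% of all genes). Top2a was at 2.16 ± 0.39 and Hmmr at 0.89 ± 0.16, both with an adjusted p = 0.142, the smallest of the members. Spc24 was the exception below 0, at -0.04. The interaction contains the Control arrays once more and so repeats their place.

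Members were also compared with one another over arrays, as a description. Over all 12 arrays the pairwise correlations between the 51 members had a median r of 0.75, and 99.5% of the 1275 pairs were above 0. Over the 9 treated arrays alone the median was 0.03, with 53.5% of pairs above 0. For deviations from group means the median was 0.43 over the 12 arrays, with 87.1% of pairs above 0. Over the 9 treated arrays such deviations gave 0.04 and 54.0%. Part of the likeness over 12 arrays therefore lay among the Control arrays. Ect2 and Prc1 lay closest to the mean of the other members over the 12 arrays (r = 0.99 for both) and Pttg1 (0.35), Bub1b (0.44) and Cenpk (0.52) furthest from it. Over the treated arrays Ect2 and Mki67 lay closest to the mean of the others (r = 0.80 for both), and Foxm1 and Knstrn ran against it (-0.67 for both). The points share the joint normalisation of the arrays, and each of these values rests on 12 or 9 arrays.

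How many members passed rested on single arrays. Without Control replicate 3 the count was 30 in TMZ (1.31% of all genes called lower), 33 in Anti-PD-1 (2.2%) and 28 in Combination (1.02%), and the median member was at -0.63 in TMZ, -0.66 in Anti-PD-1 and -0.69 in Combination. Without Control replicate 1, or without Control replicate 2, 0 members passed in any of these comparisons (at most 0.00451% of all genes). The median member was then at -0.53 in TMZ, -0.50 in Anti-PD-1 and -0.47 in Combination without replicate 1, and at -0.45 in TMZ, -0.44 in Anti-PD-1 and -0.44 in Combination without replicate 2. In TMZ the count was 0 without any TMZ array, Anti-PD-1 replicate 1 or 2, or any Combination array (0 to 6 of 22180 genes). Without Anti-PD-1 replicate 3 the count was 1. In Anti-PD-1 it was 0 without any Anti-PD-1 array, 1 without any Combination array, 2 without TMZ replicate 3, 3 without TMZ replicate 2 and 7 without TMZ replicate 1. Calls over all genes were few in these fits as well: 1 gene without any Anti-PD-1 array, 8 or 9 without a Combination array, 18 without TMZ replicate 3, 13 without TMZ replicate 2 and 50 without TMZ replicate 1, of 22180 in Anti-PD-1, and 7 in TMZ without Anti-PD-1 replicate 3. In Anti-PD-1, Hmmr kept its call in 7 of 12 such fits, Ect2 in 4, Top2a in 3, Ckap2, Cenpe, Cdc20 and Mki67 in 2, and Aurka and Prc1 in 1. In TMZ, Spc25 kept it in 2 and Hmmr and Ect2 in 1. With the neuron score as a covariate 0 members passed in any comparison, as did 0.0% of all genes. The median member was then at -0.43 in TMZ, -0.29 in Anti-PD-1 and -0.42 in Combination. When the variance was allowed to depend on brightness, 18 members passed in TMZ (0.509% of all genes, in either direction), 24 in Anti-PD-1 (1.72%) and 11 in Combination (0.189%).

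**Figure D4:**
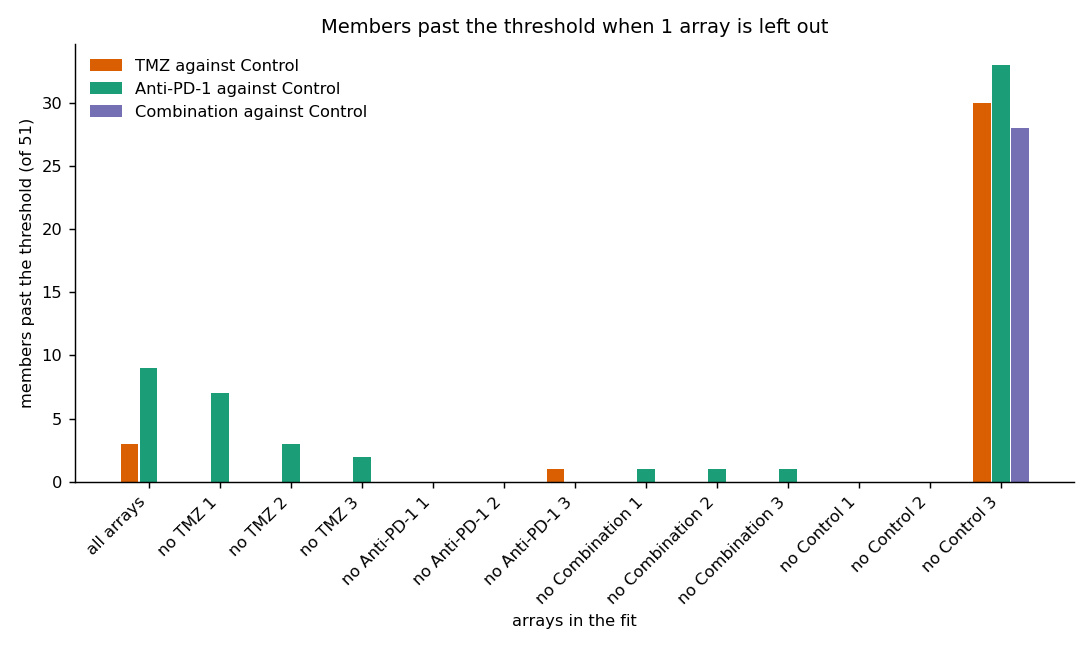
Number of the 51 members past the threshold (vertical axis) in TMZ, Anti-PD-1 and Combination against Control, with all arrays and with 1 array left out (horizontal axis). The counts are 3, 9 and 0 with all arrays, 30, 33 and 28 without Control replicate 3, and at most 7 in any other fit.

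Other genes of the same machinery were read from lists of known function, also chosen with earlier results of these data known. Of 49 measured among 55 further mitotic genes, 1 fell in TMZ (Gtse1), 1 in Anti-PD-1 (Cdca2) and 0 in Combination. The shares of all genes called lower were 0.0812%, 0.212% and 0.0%. A lower mean than in Control was found for 42 in TMZ (47.9% of all genes), 40 in Anti-PD-1 (47.6%) and 38 in Combination (49.8%). Their median differences were -0.24 in TMZ, -0.25 in Anti-PD-1 and -0.19 in Combination. Gtse1, which stabilises microtubules and restrains p53, was at -0.66 ± 0.10 in TMZ (adjusted p = 0.0461), and Cdca2, which brings a phosphatase to anaphase chromatin, at -0.55 ± 0.07 in Anti-PD-1 (adjusted p = 0.0183). Gtse1 was at -0.54 ± 0.10 in Combination, and Cdca2 at -0.37 ± 0.07 in TMZ and -0.35 ± 0.07 in Combination, none past the threshold. Plk4, the kinase of centriole duplication, was at -0.51 in TMZ and -0.52 in Anti-PD-1, and Sgo1, which guards centromeric cohesion, at -0.65 in Anti-PD-1. Kntc1 of the kinetochore corona was at -0.52 in Combination. At an unadjusted p under 0.05, 24 of the 49 were lower in TMZ (5.78% of all genes), 25 in Anti-PD-1 (6.79%) and 20 in Combination (6.18%). None passed the threshold upward. Higher at such an unadjusted p were 3 in TMZ (5.47% of all genes), 1 in Anti-PD-1 (6.7%) and 3 in Combination (5.43%). Named after their values were seen, these were Cenpo (0.26 ± 0.09), Cenpc1 (0.20 ± 0.08) and Cit (0.12 ± 0.05) in TMZ, Cit (0.12 ± 0.05) in Anti-PD-1, and Cenpw (0.29 ± 0.12), Cenpo (0.26 ± 0.09) and Cit (0.12 ± 0.05) in Combination.

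The lists of related complexes stood closer to 0. The 15 genes of the anaphase-promoting complex, the co-activator Fzr1 among them, had median differences of -0.00 in TMZ, 0.02 in Anti-PD-1 and -0.00 in Combination, with values between -0.14 and 0.17 and 0 past the threshold, while the other co-activator, Cdc20, was at -0.77 in TMZ, -0.91 in Anti-PD-1 and -0.77 in Combination. The 9 genes of cohesin and its regulators, such as the loader Nipbl and the release factor Wapl, had medians of -0.05 in TMZ, -0.02 in Anti-PD-1 and -0.00 in Combination, and 0 passed. Of 10 genes of the DREAM complex (MuvB core, the pocket proteins Rbl1 and Rbl2, and E2f4, E2f5 and Tfdp1) 0 passed, and the median was -0.10 in TMZ, -0.07 in Anti-PD-1 and -0.06 in Combination. The lowest of them was Rbl1, the p107 gene, at -0.56 ± 0.18 in TMZ, -0.62 ± 0.18 in Anti-PD-1 and -0.52 ± 0.18 in Combination (adjusted p from 0.167 to 0.32). Whether these lists differ from the members was not tested.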

How the data were processed

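Total RNA of the tumour mass was measured on 12 whole-transcript arrays. The deposited values are log2 signals that the authors made with RMA in the Affymetrix Expression Console, per the submitters' processing notes; versions are not given in the sources used here. Of 41345 probe sets, the platform annotation named 1 gene symbol for 23521, several for 1814 and did not list 16010. The probe set with the highest mean was kept for each of 1082 genes with several, which left 22180 genes and no filter on brightness. All 12 arrays entered a linear model with group means in limma 3.58.1 (R 4.3.3; eBayes, 8 residual degrees of freedom). Two-sided p-values were adjusted by Benjamini-Hochberg over the 22180 genes, and 0.05 was the threshold. Errors of differences are standard errors, and those of group means and scores are SD. The arrays' replicate numbers do not mark animals or batches in the labels, so no block entered the main fit. Genes given with a value per array were those past the threshold against Control, the 2 of each role group with the smallest p among groups, and Mki67, Top2a, Cdk1, Aurkb, Plk1, Birc5, Cdc20 and Foxm1; the 3 largest and 3 smallest differences per comparison with Control were also named. Ndc80, Pttg1 and Bub1b (largest or smallest differences) and Anln and Ncapg2 (chosen after their values were seen) were given per array as well, and every remaining member by its differences. The members and lists were chosen with earlier results of these data known. Promoter sequences and names are from RefSeq (GRCm38.p6).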

Additional observations from a re-analysis of the deposited data

How the results depend on the processing

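The fits compared are the 12 that leave out 1 array and those with another choice of probe set, scaling, filter, variance or covariate, all listed with earlier results known. Over the fits without 1 array, the members past the threshold numbered 0 to 30 in TMZ, 0 to 33 in Anti-PD-1 and 0 to 28 in Combination against Control, 0 to 18 for the interaction and 0 to 22 for any difference among groups, the highest each time without Control replicate 3, where 0.893% of all genes passed for the interaction and 1.1% for any difference. The median member in Combination against Anti-PD-1 ranged from 0.01 to 0.05 over them. In TMZ, Anti-PD-1 and Combination against Control, 0, 0 and 0 members passed with all probe sets tested (0.00242%, 0.00484% and 0.0% of probe sets). The counts were also 0, 0 and 0 with the neuron score as a covariate and with only the compared groups fitted (0.0% of all genes each time). These counts were 9, 24 and 5 with array weights (0.171%, 1.17% and 0.0766% of all genes; 2 for any difference among groups, 0.0406%). They were 18, 24 and 11 with a variance trend (0.509%, 1.72% and 0.189%). In that fit 11 passed for any difference (0.406%) and 1 for the interaction (0.0541%). After a further quantile normalisation the counts were 1, 9 and 0 (0.0406%, 0.334% and 0.0%). Without dim genes only 9 members were among the 11090 genes tested. Of these members 0, 5 and 0 passed (0.126%, 1.85% and 0.0271% of the genes tested), and 1 of the 5 had passed with all genes. Deviations of same-numbered arrays from their group means correlated between -0.162 and 0.156, and 1 of 18 pairs was over 0.1. For arrays with different numbers the range was -0.268 to 0.201, with 6 of 36 pairs over 0.1. With 3 arrays per group these values cannot settle whether the numbers mark a pairing. With the replicate block the counts were 0, 3 and 0 (0.018%, 0.0902% and 0.0% of all genes). The averages of each gene's probe sets gave 3, 9 and 0 (0.108%, 0.289% and 0.0%). Over the 9 members tested without dim genes, the median was -0.33 in Combination against Control and 0.06 in Combination against Anti-PD-1. With the neuron covariate the median of the 51 members was at -0.29 in Anti-PD-1 against Control and -0.06 in Combination against Anti-PD-1. In that fit it was -0.09 in TMZ against Anti-PD-1 and 0.39 for the interaction. Over 20 fits, 51 members checked in each where tested, signs against Control reversed for 3 genes. Pttg1 in Anti-PD-1 was at 0.07 with the neuron covariate and ranged from -0.10 to 0.04 over the fits without 1 array. In Combination against Control, Pttg1 ranged from -0.16 to 0.05, Bub1b from -0.14 to 0.06 and Cenpk from -0.24 to 0.01. The cause of these shifts was not tested. No pooled direction of the median against Control turned in any of these fits, and 3 arrays per group and the dim signal of 42 members limit what could be called.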

Other observations

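Knstrn and Mybl2 had a second probe set. For Knstrn it gave -0.22 in TMZ, -0.26 in Anti-PD-1 and -0.10 in Combination against Control, against -0.51, -0.49 and -0.57 on the probe set used. For Mybl2 it gave 0.02, -0.10 and -0.32, against -0.20, -0.27 and -0.20. The second probe sets were dimmer, and which one reflects the transcript better was not tested.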
